A study of Mus musculus with 11 samples.

Results

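The Wnt ligands, receptors and signal genes described here are 41 genes of the Wnt pathway, chosen by name. They are among the 38924 genes counted in RNA-Seq of purified mouse granule cell progenitors (GCps). This list and the other gene lists used below were chosen with earlier results of these data known. The 41 genes comprise 9 ligands, 14 receptors, 11 intracellular members and 7 inhibitors. Of the 41 genes, 40 had enough counts to be tested, and the ligand gene Wnt1 did not. The study asked which genes depend on the chromatin remodeler CHD7 in GCps, and sequenced 2 control and 2 conditional knockout (cko) libraries from P7 pups on a C57Bl/6J background. The cko pups were Math1cre;Chd7flox/flox, and the Cre is driven by Math1 (Atoh1), so that the floxed gene is lost in the granule cell lineage but kept in the most posterior lobules. The controls are labelled both wild type and Chd7flox/+, and the paper's methods for RNA-Seq also give Chd7flox/+. The extraction notes instead give 2 floxed alleles (Chd7f/f), and the sources used here do not settle which holds. Cerebella were freed of lobules IX and X, pooled within each genotype, dissociated with papain and run on a Percoll gradient to obtain GCps. A library may therefore be a pool of animals, although the methods for RNA-Seq give the number of cells per cerebellum. The ATAC-Seq and ChIP-Seq libraries were not analysed here.

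Libraries held between 61836588 and 77346481 counts, and log2 levels of replicates correlated across genes with r = 0.991 (control) and r = 0.985 (cko). All 10 markers of granule precursors on the list used were detected, with a summed level of 6174 and 6262 CPM (counts divided by the scaled library size in units of 1000000) in the control libraries and 5966 and 6425 CPM in the cko libraries. None of the 10 passed the test used below, but 5 had an unadjusted p under 0.05, with Ccnd2 (1.37-fold) and Mki67 (1.30-fold) above control and Pax6, Meis1 and Neurod1 below it, at log2 fold changes of -0.30, -0.36 and -0.71. Chd7 itself was at 322 and 319 CPM in control and at 392 and 355 CPM in cko libraries. This whole-gene count does not check the deletion, since the exons lost from the floxed allele are not given in these sources. The paper itself reports efficient Chd7 deletion in this line, by quantitative RT-PCR of purified P7 GCps and by in situ hybridization and immunostaining of sections. Cko replicate 1 stood apart in sex-linked genes, with Xist at 793 CPM and Ddx3y at 0 CPM, whereas Xist was at most 0.548 CPM and Ddx3y at least 63.7 CPM in the other 3 libraries. By these genes cko replicate 1 was female and the other 3 libraries were male, so sex was not balanced between the genotypes. The cko libraries thus came from different animals. No source used here says so of the control libraries, so the spread behind the p-values may be technical, and with 2 against 2 libraries the smallest two-sided p of an exact permutation test is 0.333.

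Wnt proteins are secreted lipid-modified ligands that bind Frizzled receptors. In the canonical branch, Frizzled and an Lrp5 or Lrp6 co-receptor recruit Dishevelled proteins, which stop a complex of Axin, Apc and Gsk3b from marking beta-catenin (Ctnnb1) for degradation, so that beta-catenin can enter the nucleus and act with Tcf/Lef factors. Other branches use Ror receptors or the planar cell polarity proteins without beta-catenin. In the developing cerebellum Wnt1 acts early at the midbrain-hindbrain boundary, and Wnt signals are also known to act on neural progenitors and on growing axons and synapses.

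In cko GCps 2 of the 40 tested members, the ligand genes Wnt4 and Wnt5a, rose and 0 fell (edgeR's quasi-likelihood test, adjusted p under 0.05). The background was 0.809% of all 16436 tested genes higher, 0.773% lower and 1.58% in either direction. Since the members were chosen with earlier results of these data known, their count is not that of a list chosen blind. At an unadjusted p under 0.05 there were 7 members, and all 7 were higher in cko, against a background of 13.6% of all tested genes in either direction. The 7 were Wnt4, Wnt5a, Lef1, Tcf7, Fzd10, Fzd6 and Tcf7l2. Both cko libraries lay above both control libraries for 10 members, where 22.7% of all tested genes did, and below them for 4 members, where 21.2% did, and the groups overlapped for 26. The calls changed with the library left out: Wnt4 alone rose without control replicate 1, no member was called without control replicate 2, Lef1 rose and Sfrp2 fell without cko replicate 1, and Wnt4, Wnt5a and Fzd10 rose without cko replicate 2. The median log2 fold change was 0.05 over the members and -0.00056 over all tested genes. In bulk RNA such as this, fewer cells of a type and less RNA per cell cannot be told apart.

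**Figure D1:**
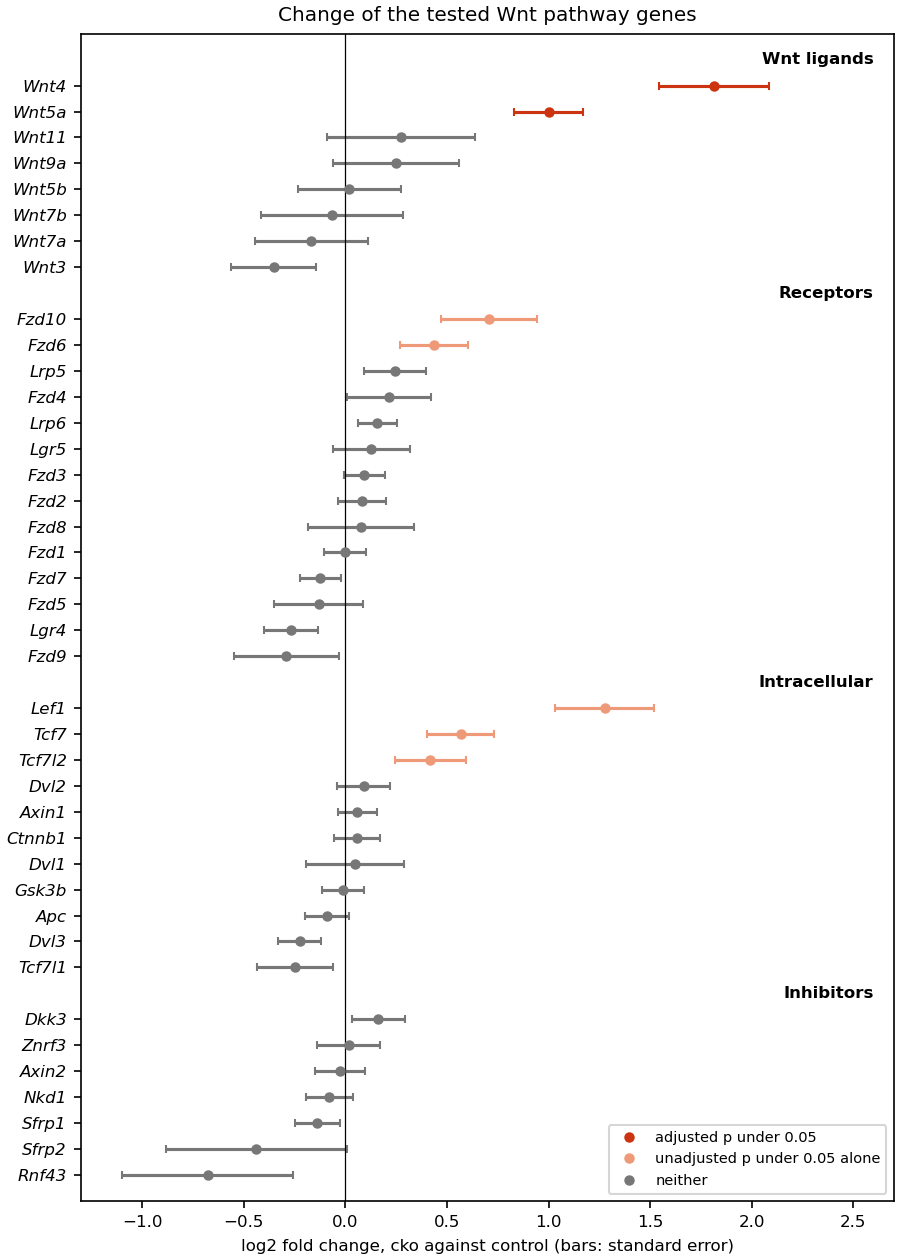
Log2 fold change of cko against control for the 40 tested members, ordered within each role, with bars of 1 standard error. Wnt4 (1.82) and Wnt5a (1.00) passed an adjusted p of 0.05, and 5 further members, in light red, had an unadjusted p under 0.05 alone.

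Wnt4 (ENSMUSG00000036856) encodes a ligand with roles in kidney, gonad and nervous system development, and lies on the forward strand of chromosome 4 of GRCm38 (mm10), from 137277489 to 137299726. It was at 1.61 and 2.32 CPM in control replicates 1 and 2 and at 8.04 and 5.74 CPM in cko replicates 1 and 2. Both cko libraries lay above both control libraries, the lower cko value exceeding the higher control value 2.47-fold. Wnt4 rose 3.52-fold, a log2 fold change of 1.82 (standard error [SE] 0.27, 95% interval 1.17 to 2.46, adjusted p = 0.0362 by the edgeR quasi-likelihood test). Its call was lost without control replicate 2 (adjusted p = 0.0586 in the same test) and without cko replicate 1 (adjusted p = 0.0599), and without the robust option of the test (0.0507), while the value itself stayed between 1.56 and 2.10 over the libraries left out in turn.

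Wnt5a (ENSMUSG00000021994), a ligand best known for signaling without beta-catenin through Ror receptors, lies on chromosome 14 from 28504750 to 28527448 on the forward strand. It was at 11.8 and 13.3 CPM in control replicates 1 and 2 and at 28.7 and 21.4 CPM in cko replicates 1 and 2. The groups did not overlap, with cko replicate 1 highest, as for Wnt4. Wnt5a rose 2.00-fold, a log2 fold change of 1.00 (± 0.17 SE, 95% interval 0.60 to 1.41, adjusted p = 0.0467 by the edgeR quasi-likelihood test). The call was lost without control replicate 1 (adjusted p = 0.0854), without control replicate 2 (0.144) and without cko replicate 1 (0.0678), and also without the robust option of the test (0.0613). Of its exonic length, 4.58% is shared with Gm2670 on the opposite strand, a gene at no more than 0.520 CPM in any library.

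The other ligand genes did not pass the test. Wnt3, Wnt5b, Wnt7a, Wnt7b, Wnt9a and Wnt11 had log2 fold changes between -0.35 (Wnt3) and 0.27 (Wnt11). Wnt3, a canonical ligand, was at 3.02 and 2.68 CPM in control and at 2.20 and 2.26 CPM in cko libraries, the one ligand gene with both cko libraries below both control libraries (adjusted p = 0.567 by the edgeR quasi-likelihood test). Wnt7b, another canonical ligand, was split within each genotype, at 5.47 and 8.50 CPM in control and at 8.60 and 4.70 CPM in cko libraries. Wnt1 had 0 and 0 counts in control and 2 and 1 counts in cko libraries, all under the 3 counts that a count of 0 allows, which correspond to between 0.0389 and 0.0497 CPM, so no fold is given.

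To set ligands beside each other, levels were taken per length, as CPM per kilobase of exon. Wnt5a had the highest mean level per length of the ligand genes over the 4 libraries (2.41), but the order differed between the genotypes. In control libraries Wnt5a was at 1.51 and 1.70 CPM per kilobase and Wnt7b at 1.12 and 1.74, so their ranges overlapped. Wnt4, at 0.383 and 0.553 CPM per kilobase, lay below Wnt5a, Wnt7b, Wnt3, Wnt7a and Wnt5b in both control libraries. In cko libraries Wnt5a was at 3.67 and 2.74 CPM per kilobase, above Wnt4 at 1.92 and 1.37 and Wnt7b at 1.76 and 0.959, and the ranges of Wnt4 and Wnt7b overlapped. With the longest transcript as gene length, Wnt7b exceeded Wnt5a in control, at mean shares of 28.7% and 25.2% of the ligand sum, and not in cko libraries (19.6% and 36.7%). The summed level per length of the 9 ligand genes was 5.90 and 6.45 in control and 9.93 and 7.44 in cko libraries. Wnt4 made up 6.49% and 8.58% of the ligand sum in control and 19.3% and 18.4% in cko libraries, and Wnt5a 25.6% and 26.3% against 37.0% and 36.9%. Wnt3 made up 16.6% and 13.5% in control and 7.21% and 9.88% in cko libraries. A share also falls when other genes of the sum rise, and Wnt3 itself did not pass the test. The cko shares of Wnt4 and Wnt5a lay close together although their CPM values in the same libraries differed.

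**Figure D2:**
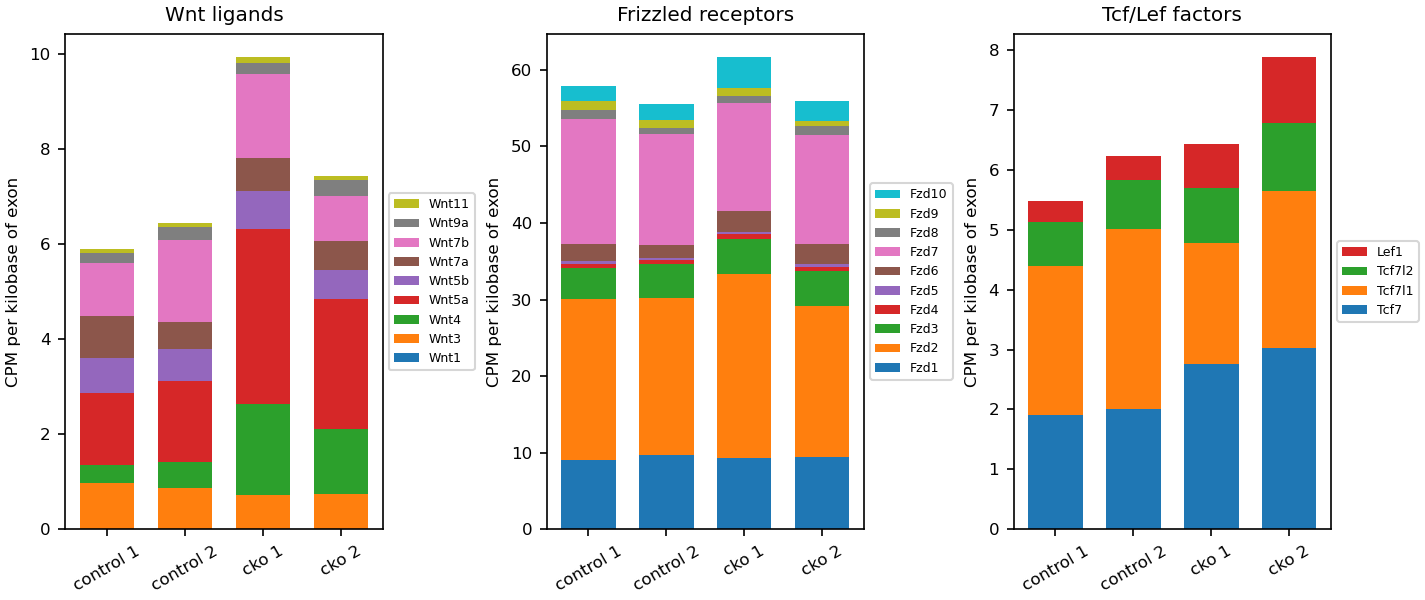
Summed level per length (CPM per kilobase of exon) of the Wnt ligand, Frizzled and Tcf/Lef genes in each library, with 1 bar per library and 1 colour per gene. The ligand sum was 5.90 and 6.45 in control and 9.93 and 7.44 in cko libraries, while the Frizzled sum lay between 55.5 and 61.6 in all 4.

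None of the 14 receptor genes passed the test. Fzd2, a Frizzled receptor, had the highest level per length of the receptor genes (mean 21.3 CPM per kilobase), ahead of Fzd7 (14.7) and Fzd1 (9.39). The ranges of these 3 genes over the libraries did not overlap. Fzd2 was at 77.0 and 74.7 CPM in control and at 88.2 and 72.3 CPM in cko libraries, so the groups overlapped (log2 fold change 0.08 ± 0.12 SE, 95% interval -0.20 to 0.36, adjusted p = 0.854 by the edgeR quasi-likelihood test). Fzd2 held between 35.3% and 39.1% of the summed Frizzled level per length in every library.

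Fzd10 and Fzd6 were the receptor genes with an unadjusted p under 0.05. Fzd10, a Frizzled gene, was at 6.27 and 6.53 CPM in control and at 12.8 and 8.08 CPM in cko libraries. Both cko libraries lay above the controls, with cko replicate 1 far above cko replicate 2 (log2 fold change 0.71 ± 0.24 SE, adjusted p = 0.244 by the edgeR quasi-likelihood test). Without cko replicate 2, the log2 fold change of Fzd10 was 1.00 with an adjusted p of 0.0316. Fzd6, a Frizzled receptor known for roles in planar cell polarity, was at 10.8 and 8.44 CPM in control and at 13.1 and 12.9 CPM in cko libraries, without overlap (log2 fold change 0.44 ± 0.17 SE, adjusted p = 0.311).

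The remaining receptor genes had log2 fold changes between -0.29 (Fzd9) and 0.24 (Lrp5). The co-receptor gene Lrp6 was at 63.4 and 63.2 CPM in control and at 73.8 and 67.4 CPM in cko libraries, and Lrp5 at 25.7 and 24.1 CPM in control and 33.5 and 25.3 CPM in cko libraries, of which the first pair of groups did not overlap and the second did (adjusted p = 0.588 and 0.592 by the edgeR quasi-likelihood test). The R-spondin receptor genes Lgr4 (log2 fold change -0.27) and Lgr5 (0.13) also did not pass.

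**Figure D3:**
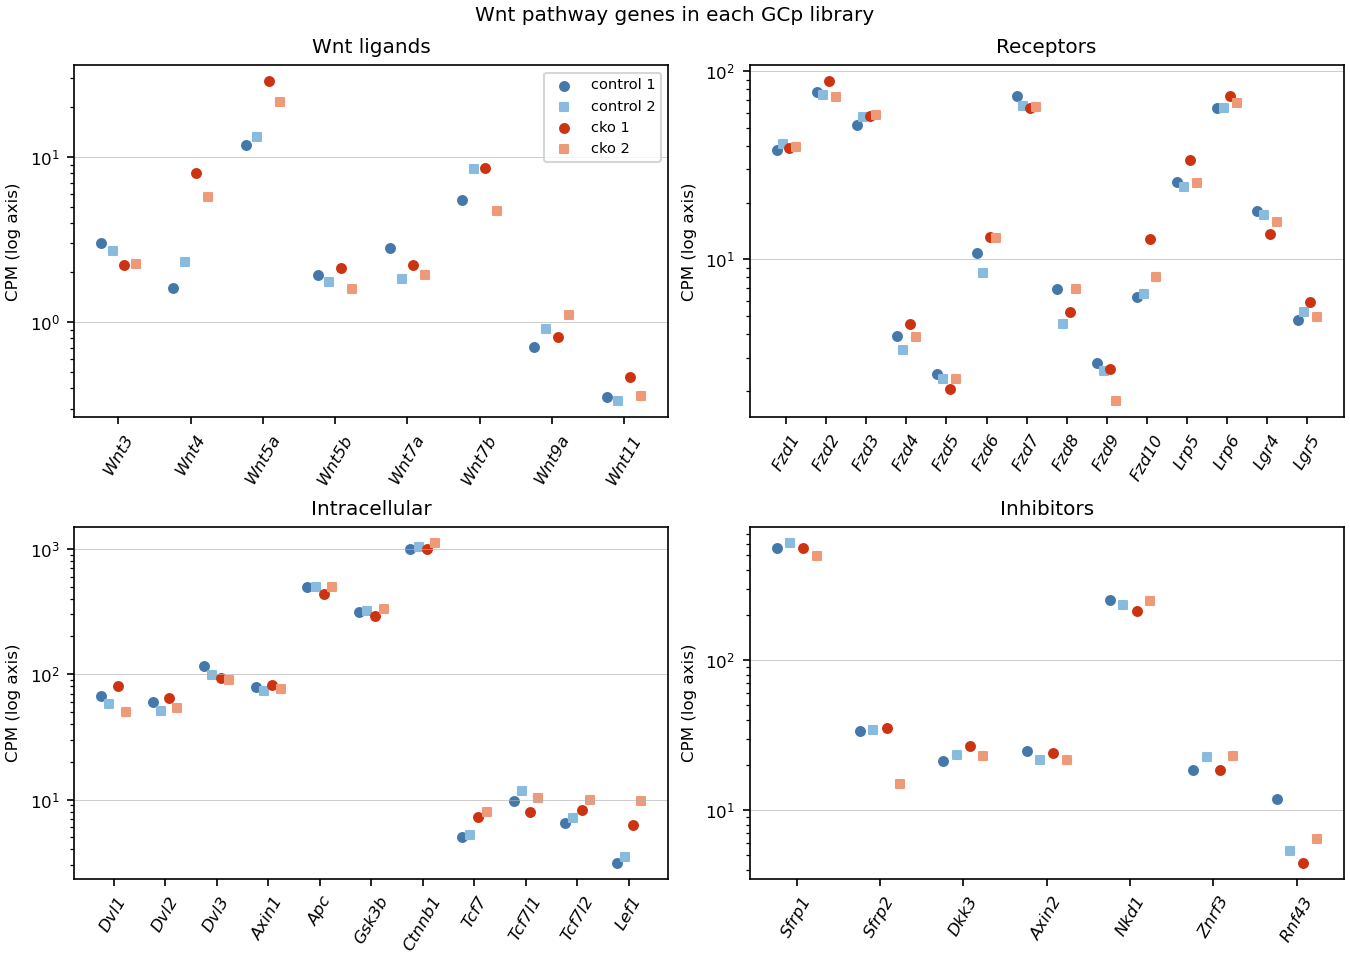
CPM of each tested member in each of the 4 libraries, on log axes, by role, with circles for replicate 1 and squares for replicate 2. Wnt4, Wnt5a, Lef1 and Tcf7 show both cko libraries above both control libraries, whereas Sfrp2 is low in cko replicate 2 alone (15.0 CPM) and Rnf43 high in control replicate 1 alone (11.9 CPM).

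Of the 11 intracellular members 0 passed the test, with 3 at an unadjusted p under 0.05, all of them Tcf/Lef genes. Lef1 (ENSMUSG00000027985), a nuclear partner of beta-catenin that is also a target of the pathway, lies on chromosome 3 from 131110471 to 131224356 on the forward strand. It was at 3.11 and 3.48 CPM in control and at 6.32 and 9.66 CPM in cko libraries. The groups did not overlap, and here cko replicate 2 was the higher cko library. The log2 fold change of 1.28 (± 0.24 SE, 95% interval 0.70 to 1.86) had an adjusted p of 0.0615 by the edgeR quasi-likelihood test. It passed in 4 of the 9 alternative settings, among them DESeq2 (adjusted p = 0.000294) and the fit without cko replicate 1 (0.0181). Of its exonic length, 13.75% is shared with Gm43352 on the opposite strand, a gene absent from the counted annotation.

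Tcf7 was at 4.99 and 5.25 CPM in control and at 7.24 and 7.93 CPM in cko libraries, without overlap (log2 fold change 0.57 ± 0.17 SE, adjusted p = 0.181 by the edgeR quasi-likelihood test). Tcf7l2 was at 6.45 and 7.16 CPM in control and at 8.20 and 9.98 CPM in cko libraries, also without overlap (0.42 ± 0.17 SE, adjusted p = 0.364). Tcf7l1, a factor known mostly as a repressor, was at 9.77 and 11.8 CPM in control and at 7.90 and 10.3 CPM in cko libraries, where the groups overlapped (-0.25 ± 0.19 SE, adjusted p = 0.673). Tcf7l1 made up 45.4% and 48.3% of the summed Tcf/Lef level per length in control and 31.3% and 33.2% in cko libraries, while Lef1 went from 6.46% and 6.37% to 11.2% and 13.96%. With the longest transcript as gene length, the Lef1 shares were 10.9% and 10.7% in control and 18.3% and 22.2% in cko libraries.

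The upstream sequences of Wnt4, Wnt5a and Lef1, the members with the largest differences, are shown for the words to which Tcf/Lef factors bind. They are the 250 bases before the GENCODE start of each gene, read from the RefSeq copy of GRCm38.p6 on the forward strand at chr4:137277239-137277488, chr14:28504500-28504749 and chr3:131110221-131110470, in lower case, since capitals were kept for matches and there were none.
Wnt4: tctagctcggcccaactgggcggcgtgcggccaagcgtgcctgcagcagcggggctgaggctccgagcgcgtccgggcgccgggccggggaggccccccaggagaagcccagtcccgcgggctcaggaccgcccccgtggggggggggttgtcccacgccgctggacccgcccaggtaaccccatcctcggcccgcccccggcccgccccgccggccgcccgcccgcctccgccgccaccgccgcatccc
Wnt5a: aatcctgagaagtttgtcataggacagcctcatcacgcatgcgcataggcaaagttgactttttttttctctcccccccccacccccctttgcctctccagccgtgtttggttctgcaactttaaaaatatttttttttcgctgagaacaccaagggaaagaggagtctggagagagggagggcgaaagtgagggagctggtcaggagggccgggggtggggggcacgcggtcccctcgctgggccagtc
Lef1: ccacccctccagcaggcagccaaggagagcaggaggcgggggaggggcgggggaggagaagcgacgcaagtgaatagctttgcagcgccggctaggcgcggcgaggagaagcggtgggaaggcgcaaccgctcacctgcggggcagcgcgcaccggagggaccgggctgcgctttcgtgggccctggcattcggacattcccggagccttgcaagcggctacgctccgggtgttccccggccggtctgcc
The words searched were CTTTGAT and CTTTGAA on both strands, and do not overlap each other. Of the 41 members, 2 held one (Nkd1 and Wnt11, 4.88%), against 7.21% of 21213 genes with such a window. In RefSeq promoter windows of 300 bases, held for 27 of the members, 2 members held one. Of all 32851 such windows 8.65% did, a share that counts windows and not genes, so it cannot be set directly against the members. The windows were 81.2% (Wnt4), 55.2% (Wnt5a) and 71.2% (Lef1) G and C. A word that is missing says only that these letters are not in this window.

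Ctnnb1, which encodes beta-catenin, had the highest level per length of all 41 members (mean 199 CPM per kilobase). It was at 992 and 1033 CPM in control and at 995 and 1113 CPM in cko libraries. The groups overlapped, and the log2 fold change of 0.06 had a 95% interval of -0.21 to 0.33 (± 0.11 SE, adjusted p = 0.898 by the edgeR quasi-likelihood test). The genes of the complex that marks beta-catenin, Axin1 (0.06), Apc (-0.09) and Gsk3b (-0.01), and the Dishevelled genes Dvl1 (0.05), Dvl2 (0.09) and Dvl3 (-0.23) had log2 fold changes within 0.23 of 0 and did not pass. Dvl3 was the one of these with both cko libraries below both controls, at 115 and 98.8 CPM in control and at 93.3 and 89.8 CPM in cko libraries. Ctnnb1 shares 14.6% of its exonic length with Ulk4, and Dvl2 18.3% with Acadvl, both on the opposite strand, and whether the counting used strand is not stated in these sources.

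None of the 7 inhibitor genes passed, at adjusted p between 0.603 and 0.983 by the edgeR quasi-likelihood test, and the groups overlapped for all 7. Sfrp1, a secreted Frizzled-related protein that binds Wnt ligands, had the highest level per length of the inhibitor genes (mean 127 CPM per kilobase). It was at 561 and 605 CPM in control and at 563 and 497 CPM in cko libraries (log2 fold change -0.14 ± 0.11 SE, 95% interval -0.40 to 0.13, adjusted p = 0.697). Sfrp2, of the same family, was at 33.8 and 34.2 CPM in control and at 35.2 and 15.0 CPM in cko libraries, so that cko replicate 2 alone was low. Without cko replicate 1 its log2 fold change was -1.17 with an adjusted p of 0.0101, and without cko replicate 2 it was 0.05 with an adjusted p of 0.888.

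Axin2, Nkd1, Znrf3 and Rnf43 restrain the pathway and are also known as its targets. Axin2 was at 24.7 and 21.7 CPM in control and at 23.9 and 21.6 CPM in cko libraries, with a log2 fold change of -0.03 (95% interval -0.32 to 0.27). Nkd1 (-0.08, 95% interval -0.35 to 0.19) and Znrf3 (0.02, 95% interval -0.35 to 0.38) were also near 0. Rnf43 was at 11.9 and 5.35 CPM in control and at 4.42 and 6.41 CPM in cko libraries, so that control replicate 1 alone was high (log2 fold change -0.68, 95% interval -1.75 to 0.39, and 0.02 without that library). Dkk3, a Dickkopf family gene, had a log2 fold change of 0.16.

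Of 95 other genes of the pathway, 81 were tested, 5 rose and 0 fell, beside the 0.809% higher and 0.773% lower of all tested genes. Their lists too were chosen with earlier results known, so this count is not that of a blind choice. At an unadjusted p under 0.05 there were 17 of the 81, with 10 higher and 7 lower in cko, against 13.6% of all tested genes. Both cko libraries lay above both controls for 18 of the 81, where 22.7% of all tested genes did. They lay below both controls for 17 of the 81, where 21.2% of all tested genes did. Their median log2 fold change was -0.02. Wls, which carries Wnt proteins to the cell surface, was at 36.5 and 37.4 CPM in control and at 62.3 and 63.1 CPM in cko libraries. It rose 1.70-fold (log2 fold change 0.76 ± 0.10 SE, adjusted p = 0.0239 by the edgeR quasi-likelihood test). Ror1, a receptor tyrosine kinase that binds Wnt5a, was at 20.3 and 23.5 CPM in control and at 37.9 and 40.0 CPM in cko libraries, and rose 1.78-fold (0.83 ± 0.12 SE, adjusted p = 0.0348).

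The other 3 that rose were 2 genes of inhibitors and 1 of planar cell polarity. Apcdd1, a membrane inhibitor, was at 81.5 and 78.9 CPM in control and at 131 and 121 CPM in cko libraries (log2 fold change 0.65 ± 0.09 SE, adjusted p = 0.0348 by the edgeR quasi-likelihood test). Draxin, a secreted guidance protein that also antagonizes Wnt signaling, was at 405 and 406 CPM in control and at 682 and 631 CPM in cko libraries (0.70 ± 0.10 SE, adjusted p = 0.0348). Celsr1, a cadherin of planar cell polarity, was at 56.1 and 51.0 CPM in control and at 82.8 and 77.9 CPM in cko libraries (0.59 ± 0.10 SE, adjusted p = 0.0484). For all 5 genes both cko libraries lay above both controls, but without control replicate 1 (adjusted p from 0.0582 to 0.186 in the same test) or without control replicate 2 (0.0905 to 0.272) none of the 5 passed. Without cko replicate 1, Apcdd1 (0.0628) and Celsr1 (0.101) did not pass. None of the 30 other intracellular genes passed. Porcn, which adds the lipid to Wnt proteins, was at 62.8 and 55.7 CPM in control and at 39.9 and 45.2 CPM in cko libraries (log2 fold change -0.48, adjusted p = 0.119).

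A list of 13 known feedback and target genes shares Axin2, Lef1, Tcf7, Nkd1, Znrf3, Rnf43 and Lgr5 with the members. It also shares Apcdd1, Notum and Dkk1 with the other pathway genes. Of the 13, 12 were tested, 2 rose (Apcdd1 and Ccnd1) and 0 fell, beside the same 0.809% higher and 0.773% lower of all tested genes. The call of Apcdd1 is the one already given above. At an unadjusted p under 0.05 there were 6, of which 5 were higher and 1 lower, against 13.6% of all tested genes. Ccnd1, a D-type cyclin that many pathways regulate, was at 148 and 192 CPM in control and at 318 and 291 CPM in cko libraries (log2 fold change 0.84 ± 0.14 SE, adjusted p = 0.0474 by the edgeR quasi-likelihood test). Its call was lost whichever library was left out, at adjusted p from 0.0516 to 0.146. Sp5, a target in many tissues, was at 28.6 and 26.2 CPM in control and at 22.1 and 21.0 CPM in cko libraries (-0.35, adjusted p = 0.229).

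Markers of other cell types also differed between the libraries. The 13 skeletal muscle markers summed to 9.16 to 12.3 CPM in control and 42.7 to 86.5 CPM in cko libraries, and 6 of the 13 rose. The 16 endothelial and mural markers summed to 407 to 456 CPM in control and 561 to 619 CPM in cko libraries. Of these, 0 rose and 1 fell (Slco1a4), with a median log2 fold change of 0.47. Log2 fold changes were above 0 for 15 of the 16. Both cko libraries lay above both controls for 13, where 22.7% of all tested genes did. At an unadjusted p under 0.05 there were 9 higher and 1 lower, against 13.6% of all tested genes in either direction. The muscle sum and the endothelial and mural sum were highest in cko replicate 2, as was Lef1, whereas Wnt4, Wnt5a and Fzd10 were highest in cko replicate 1. Within the endothelial and mural list the order varied. Rgs5 differed most in CPM, at 107 and 151 CPM in cko replicates 1 and 2. Kdr (85.3 and 76.6 CPM), Cldn5 (108 and 100 CPM) and Sox18 (28.0 and 21.2 CPM) were higher in cko replicate 1, and all others in cko replicate 2.

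The 14 meningeal and choroid markers summed to 312 to 321 CPM in control and 364 to 403 CPM in cko libraries, with 1 higher (Clic6). Their sum was highest in cko replicate 1, where Ttr was at 29.9 CPM against 0.943 CPM in cko replicate 2. Log2 fold changes were above 0 for 10 of the 14 and below 0 for 4 (Col1a1, Col1a2, Dcn and Lum). This list shares Pdgfra (136 to 148 CPM) with the oligodendrocyte list and Otx2 (66.9 to 95.1 CPM) with the rhombic lip list. The 10 oligodendrocyte lineage markers summed to 365 to 413 CPM against 449 to 470 CPM, with 1 higher (Olig2), and the 11 astrocyte and Bergmann glia markers to 1081 to 1163 CPM against 940 to 948 CPM, with 0 called. The 8 unipolar brush cell and rhombic lip markers, which include Wls, summed to 260 to 279 CPM against 308 to 314 CPM, and 2 rose (Wls and Olig3). The 10 markers of postmitotic granule neurons summed to 5401 to 5667 CPM against 4062 to 4578 CPM, and 2 fell (Kcnd2 and Cadps2). Grin2c of the same list was at 1.10 and 2.59 CPM in control and at 23.0 and 15.5 CPM in cko libraries (adjusted p = 0.0566 by the edgeR quasi-likelihood test), and Calb2 at 1.72 and 1.99 CPM against 3.37 and 3.07 CPM (adjusted p = 0.150). The 11 Purkinje cell and interneuron markers summed to 65.2 to 74.9 CPM against 82.5 to 83.3 CPM, the 9 microglia and immune markers to 214 to 244 CPM against 236 to 245 CPM, and the 5 erythroid markers to 20.1 to 28.0 CPM against 27.9 to 30.8 CPM, with 0 called in each. Of all these markers, Gabra6 alone was at 0 CPM in a library. The part of these cells in the differences above was not tested.

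**Figure D4:**
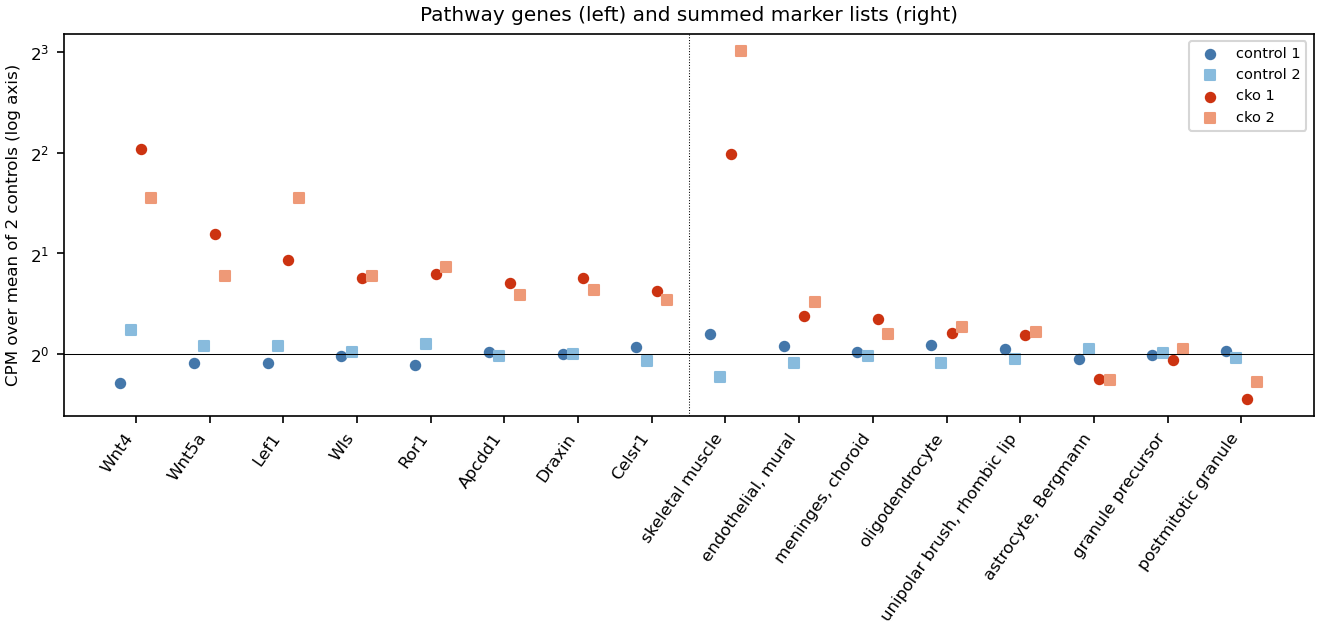
CPM in each library divided by the mean of the 2 control libraries, on a log axis, for 8 pathway genes (left) and for summed marker lists (right). Wnt4 and Wnt5a are highest in cko replicate 1, while Lef1 and the skeletal muscle sum are highest in cko replicate 2 (9.66 and 86.5 CPM).

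**Figure D5:**
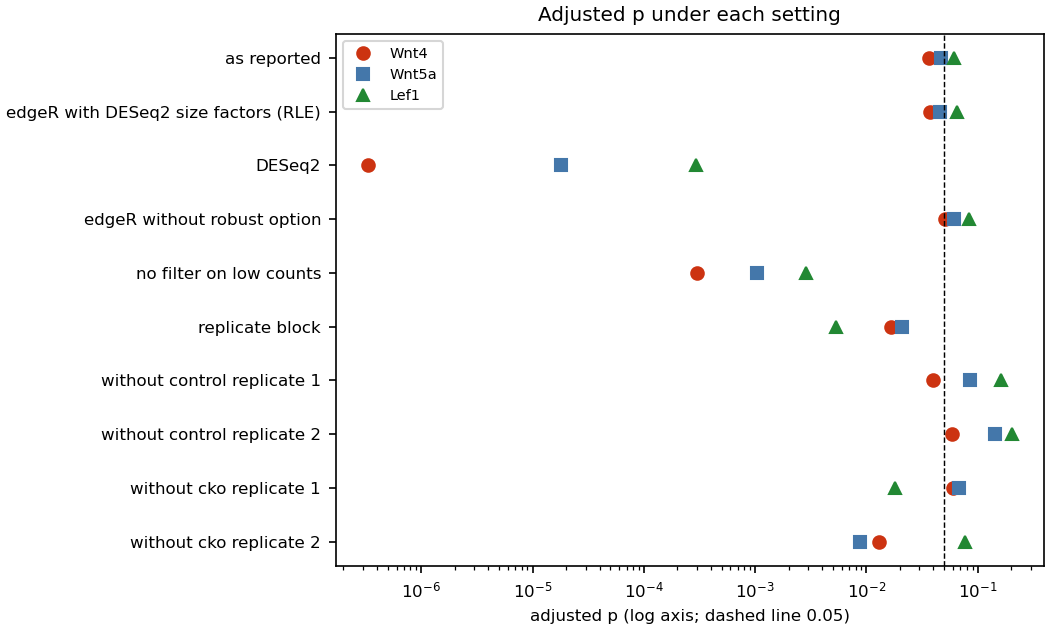
Adjusted p of Wnt4, Wnt5a and Lef1 in the edgeR fit of this report (as reported) and under the 9 alternative settings, on a log axis. The dashed line is at 0.05. DESeq2 gave the lowest values for all 3 genes, and Wnt4 and Wnt5a were above 0.05 in 3 and 4 of the alternatives.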

How the data were processed

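RNA-Seq counts of 2 control and 2 cko GCp libraries were analysed. The authors deposited counts, raw whole numbers of reads assigned to each Ensembl 75 gene. By the submitters' processing notes and the methods of the paper, reads were trimmed with Trim Galore 0.4.1, aligned to mm10 with TopHat2 2.0.14, counted with HTSeq 0.6.1p1 in intersection-strict mode and compared with DESeq2 1.8.1. Whether the counting used strand is not stated in these sources, which leaves genes overlapping on opposite strands uncertain.

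Names and lengths came from GENCODE vM21 for 37607 of 38924 genes. In R 4.3.3, edgeR 4.0.16 kept 16436 genes (filterByExpr), scaled libraries by TMM and compared cko with control by its robust quasi-likelihood test, with Benjamini-Hochberg adjustment over all genes and a threshold of 0.05. A standard error is the log2 fold change divided by the square root of F. Levels per length used the union of exons. Depth was 61836588 to 77346481 counts. The fit was tested on simulated data: it recovered the direction of nearly all genes changed 4-fold, but more of its calls were false than the threshold allows, slightly so with a spread taken from the trend over genes and well above it when each gene kept its own spread. All calls here, those of Wnt4 and Wnt5a included, may therefore carry more error than their adjusted p states.

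The members and the other gene lists were chosen with earlier results of these data known. Full values are given for members with an adjusted or unadjusted p under 0.05, for the highest member per length of each role and for members whose cko libraries lay outside the control range by over 1.5-fold. Other pathway genes are named where they passed, with Porcn, Sp5 and Notum chosen after their values were seen. The windows before GENCODE starts were added after the RefSeq windows had been searched. Alternatives were DESeq2 1.42.0, RLE scaling, no robust option, no filter, a replicate block and each library left out.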

Additional observations from a re-analysis of the deposited data

How the results depend on the processing

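The number of members that rose was 2 as reported, 0 without the robust option of edgeR's test (adjusted p = 0.0507 for Wnt4 and 0.0613 for Wnt5a) and 0 (without control replicate 2) to 3 (without cko replicate 2) over the libraries left out in turn, where 0 to 1 fell (Sfrp2, without cko replicate 1). The number of all genes called was 260 as reported, 891 with DESeq2, 727 without the filter on low counts, 1010 with the replicate block and 83 to 602 over the libraries left out, or 115 to 712 with the low-count filter run again. RLE scaling gave 259. As reported here means the edgeR fit of this report and not the paper's calls. The paper compared these libraries with DESeq2, and reported more changed coding transcripts than the 260 genes called here. With the replicate number as a block (replicate block) Lef1 passed as well (adjusted p = 0.00534), beside Wnt4 (0.0165) and Wnt5a (0.0207). The labels do not say that a number marks a litter or day, so the block was not taken as the design. Across 16436 genes the deviations of same-numbered libraries from their genotype mean correlated at r = 0.187. With 2 libraries per genotype these deviations mirror each other, so this is 1 value and cannot decide whether the libraries were paired.

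Of 360 log2 fold changes of members under the alternatives, 321 kept direction and side of the threshold, 7 lost the call, 6 gained it and 26 changed sign, in 17 members with 1 library left out. Over the libraries left out, with genes held fixed or filtered again, the log2 fold change ran from -0.20 to 0.21 for Wnt5b, from -0.45 to 0.18 for Wnt7a, from -0.56 to 0.30 for Wnt7b, from -0.062 to 0.052 for Fzd1, from -0.059 to 0.22 for Fzd2, from -0.20 to 0.43 for Fzd8, from -0.0058 to 0.26 for Lgr5, from -0.34 to 0.35 for Dvl1, from -0.031 to 0.21 for Dvl2, from -0.19 to 0.011 for Apc, from -0.11 to 0.084 for Gsk3b, from -0.026 to 0.15 for Ctnnb1, from -1.17 to 0.047 for Sfrp2, from -0.12 to 0.070 for Axin2, from -0.20 to 0.042 for Nkd1, from -0.14 to 0.16 for Znrf3, from -1.14 to 0.016 for Rnf43. The libraries left out were first fitted with the gene filter run anew; the genes were held fixed after those values had been seen, so that 1 choice changed at a time. Filtered again, which was added after seeing the data, 1 to 3 members rose and Wnt4 passed without control replicate 2 (adjusted p = 0.0463). Members called in any setting were Wnt4, Wnt5a, Lef1, Fzd10 and Sfrp2. The longest transcript as gene length moved the level per length of 15 members by more than the replicate SD. The lowest tested member, Wnt11, rested on 20 to 36 counts per library, and Wnt1 on 0 to 2.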
